A study of Mus musculus with 7 samples.

Results

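A set of 10 genes of the Notch pathway and of the secretory fate switch it controls were followed in open chromatin of mouse intestinal stem cells: the receptors Notch1 and Notch2, the ligands Dll1, Dll4 and Jag1, the DNA-binding effector Rbpj, the targets Hes1 and Nrarp, and the secretory factors Atoh1 and Gfi1. A peak belonged to a gene when its summit, the highest point of the peak, lay in the gene body, or when that gene was the nearest protein-coding gene within 50 kb, in the RefSeq annotation of GRCm38.p6 (the mm10 build). By this rule 597 of 531679 peaks on chromosomes 1 to 19 and X belonged to the 10 genes. Peaks of different libraries that shared 1 bp or more were joined into regions, of which 109 of 103809 belonged to these genes. The peak of these genes nearest to the distance limit lay 46257 bp from Hes1, and the nearest one beyond it lay 51848 bp from Dll1.

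The cells were Lgr5+ stem cells sorted by FACS from the intestine of B6-GFP-Lgr5 mice, which carry a GFP reporter for the stem cell gene Lgr5. All recipients were female, 8 to 12 weeks old and lethally irradiated, and all were sampled 7 days after bone marrow transplantation. The Syn group (3 libraries) received syngeneic marrow, and the Allo group (4 libraries) received marrow from BALB/c donors, an allogeneic transplant in which donor immune cells can attack the host gut. Each library came from 50000 cells of 3 to 4 pooled mice, so differences among the mice of a pool were not measured, and mice without irradiation were not analysed here. Omni-ATAC-seq, which cuts and tags accessible DNA with a transposase, gave 1 peak list per library. In pooled cells, more cells with an open site and a more open site in each cell cannot be told apart.

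Notch receptors are activated by Delta-like and Jagged ligands on neighbouring cells. Cleavage then frees the intracellular domain, which joins RBPJ on DNA and switches on targets such as Hes1, a repressor, and Nrarp, a feedback inhibitor of the pathway. In the intestinal crypt, HES1 represses Atoh1, the master factor of the secretory lineages, and GFI1 acts below ATOH1 in Paneth and goblet cell differentiation. Stem cells therefore stay in the Notch-on state, and neighbouring Paneth cells supply ligands.

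The 250 bases upstream of the transcription start are shown for 4 genes, because these windows lay in open chromatin and hold the letters that the pathway's own DNA-binding proteins read. They come from the RefSeq promoter table of GRCm38.p6, which matched 9 of the 10 genes (12 promoters), all except Hes1. Sequences run 5′ to 3′ on the strand of the gene, and capitals mark the RBPJ core TGGGAA or the HES site CACGCG on either strand. The windows are Dll4 at chr2:119325534-119325783 (plus strand), Jag1 at chr2:137116521-137116770 (minus strand), Atoh1 at chr6:64728875-64729124 (plus strand) and Rbpj at chr5:53590096-53590345 (plus strand).
Dll4: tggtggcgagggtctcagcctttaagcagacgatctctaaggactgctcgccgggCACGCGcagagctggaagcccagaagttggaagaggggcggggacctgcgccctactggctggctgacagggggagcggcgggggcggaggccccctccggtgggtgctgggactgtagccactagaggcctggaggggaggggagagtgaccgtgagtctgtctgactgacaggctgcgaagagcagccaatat
Jag1: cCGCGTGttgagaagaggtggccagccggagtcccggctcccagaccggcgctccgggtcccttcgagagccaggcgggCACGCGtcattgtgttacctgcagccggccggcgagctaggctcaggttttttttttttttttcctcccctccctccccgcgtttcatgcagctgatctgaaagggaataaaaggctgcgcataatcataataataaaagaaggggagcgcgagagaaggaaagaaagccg
Atoh1: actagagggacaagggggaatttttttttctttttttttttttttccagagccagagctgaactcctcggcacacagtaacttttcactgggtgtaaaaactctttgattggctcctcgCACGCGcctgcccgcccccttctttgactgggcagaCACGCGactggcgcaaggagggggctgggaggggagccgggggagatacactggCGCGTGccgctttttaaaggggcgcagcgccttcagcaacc
Rbpj: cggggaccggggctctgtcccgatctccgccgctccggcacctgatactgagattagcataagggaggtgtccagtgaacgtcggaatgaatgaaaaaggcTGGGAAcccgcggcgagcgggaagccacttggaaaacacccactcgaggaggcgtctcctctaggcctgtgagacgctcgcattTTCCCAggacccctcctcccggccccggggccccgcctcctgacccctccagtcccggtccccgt

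The Atoh1 window held 3 HES sites, beginning 131, 95 and 41 bases upstream of the start. Jag1 held 2 HES sites, and Dll4, Notch2 and the outer start of Dll1 held 1 each. Of all 21045 promoters in the table, 10.1% held this site. The RBPJ core was found in Rbpj itself, 149 and 65 bases upstream, and in no other member searched, against 21.1% of all promoters. The Hes1 promoter, absent from the table, was not searched for any motif. Also searched on both strands were the canonical E-box CACGTG (6.70% of promoters; found in Nrarp), the class A E-box CAGCTG (12.2%; Dll1 and Jag1), the TCF/LEF core CTTTGA (12.8%; 2 matches in Atoh1), CAGATG (12.3%), the GFI1 core AATCAC (8.81%) and the STAT site TTCNNNGAA (6.64%), and the last 3 were in no window of a member. Matches of different motifs did not overlap each other. Peaks covered the whole 250 bases of Dll4, Atoh1 and Rbpj in all 7 libraries, and those of Jag1 in 4 libraries, with 173 to 182 bases covered in Syn 3, Allo 1 and Allo 2.

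The lists held 71925 to 76438 peaks in the Syn libraries and 62977 (Allo 1) to 88861 (Allo 3) in the Allo libraries, with unknown read depth, and the peaks of Allo 3 and Allo 4 carry names in another scheme than those of Allo 1 and Allo 2. Of 13 stem cell markers, 12 had a peak within 1 kb of their start in every library, and 9 of 10 epithelial markers did. Among differentiated types, 7 of 9 absorptive enterocyte markers did, as did 5 of 7 goblet and 6 of 9 tuft cell markers. So did 6 of 10 enteroendocrine, 3 of 7 Paneth cell and 1 of 9 endothelial and stromal markers. Start peaks alone therefore do not tell stem cells from other intestinal epithelial cells. Of 14 T and NK cell markers, 12 had no start peak in any library, Cd3e, Cd3d, Cd3g and Cd8a among them. Cd4 had a start peak in all 7 libraries and Cd8b1 in 1. By the assignment rule, however, no region belonged to Cd4 in any library, so its start peaks counted for another gene. The peaks near the T and NK cell list numbered 3.14 to 3.48 per 10000 peaks in Syn and 3.04 to 4.07 in Allo. The 8 pan-leukocyte markers had 3.14 to 3.34 in Syn and 3.15 to 4.28 in Allo, with Allo 3 highest. Of these 8, Coro1a, Lcp1 and Spi1 had a start peak in all 7 libraries, Cd52 and Vav1 in 4 and Ptprc in 1, and Tyrobp and Laptm5 had none. A region was assigned to Cd52 itself in Allo 3 only. Tuft cell markers, a secretory type, had 4.97 to 5.97 in Syn and 6.31 to 7.46 in Allo. These ranges did not overlap, but those of every other marker list looked at did, and the difference was not tested. Paneth cell markers had 1.39 to 1.83 in Syn and 1.59 to 2.94 in Allo, goblet cell markers 5.56 to 6.02 and 5.40 to 6.36, and enteroendocrine markers 2.22 to 2.88 and 2.59 to 2.81. The part of such cells in the results below was not tested.

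The share of peaks that lay at the member genes did not differ between recipient types beyond the spread of the libraries. Per 10000 peaks of a library, the members held 11.3, 11.1 and 10.6 peaks in Syn 1 to 3 and 12.4, 11.7, 10.9 and 10.9 in Allo 1 to 4. The means were 10.997 ± 0.352 (SD, n = 3) and 11.5 ± 0.715 (SD, n = 4), a ratio of 1.04. The groups overlapped, with a difference of 0.476 (two-sided exact permutation test over 35 relabellings, p = 0.371, smallest possible p = 0.0286). Its sign turned when all lists were shortened to the 62977 best peaks (-0.172) and without Allo 1 and Allo 2 (-0.0931).

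**Figure D1:**
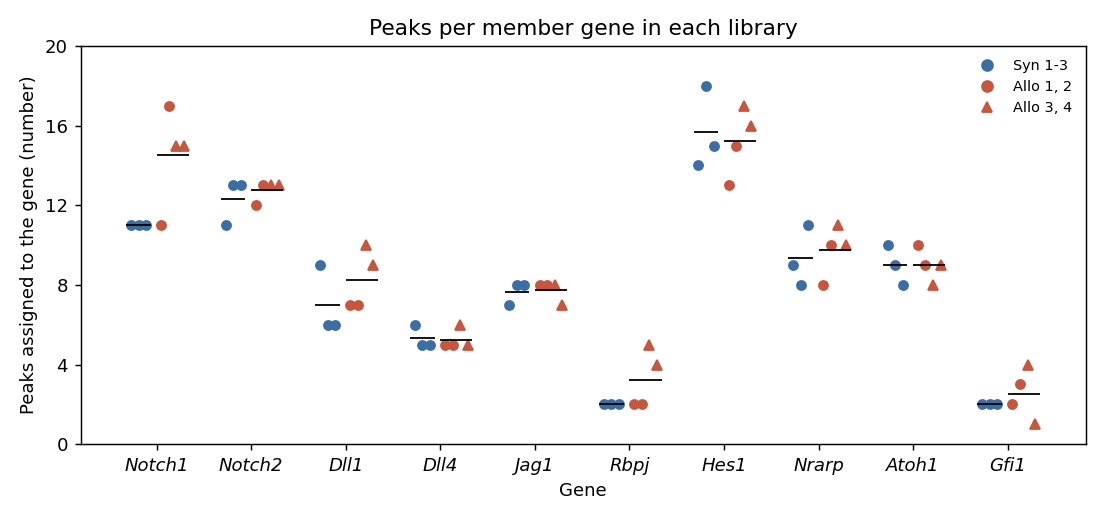
Number of peaks assigned to each member gene (vertical axis) in each library; blue circles are Syn 1 to 3, red circles Allo 1 and 2, red triangles Allo 3 and 4, and black lines are group means. Notch1 had 11 peaks in each Syn library and in Allo 1, and 15 to 17 in the other Allo libraries, while Rbpj and Gfi1 had few peaks throughout.

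Between genes, the number of peaks ranged from 1 to 5 for Rbpj and Gfi1 to 13 to 18 for Hes1. Notch1 had 11 peaks in Syn 1, 2, 3 and Allo 1, and 17, 15 and 15 in Allo 2, 3 and 4. Of its 8 regions that were not open everywhere, 4 were open in 1 library alone, all of them Allo. Most regions of this kind were in Allo in the whole series too (12936 of 17182). Rbpj had 2 peaks in each Syn library, in Allo 1 and in Allo 2, but 5 in Allo 3 and 4 in Allo 4. The other genes differed between recipient types by less than the spread of the libraries, as with Hes1 (14, 18 and 15 in Syn; 13, 15, 17 and 16 in Allo) and Atoh1 (10, 9 and 8; 10, 9, 8 and 9).

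Most of this chromatin was open in every library. Of the 109 regions, 64 (58.7%) held a peak in all 7 libraries, against 48.5% of all regions, and 18 (16.5%) in 1 library alone, against 16.6%. Of those 18, 15 were in an Allo library, 8 of them in Allo 3, the longest list. Among the 17182 regions of the whole series open in 1 library, 12936 were in an Allo library, 8728 of them in Allo 3. A single region was open in all 4 Allo libraries and no Syn library, against 1.14% of all regions, and 2 regions (1.83%) were open in all 3 Syn libraries and no Allo library, against 1.01%. These shares are near the background.

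**Figure D2:**
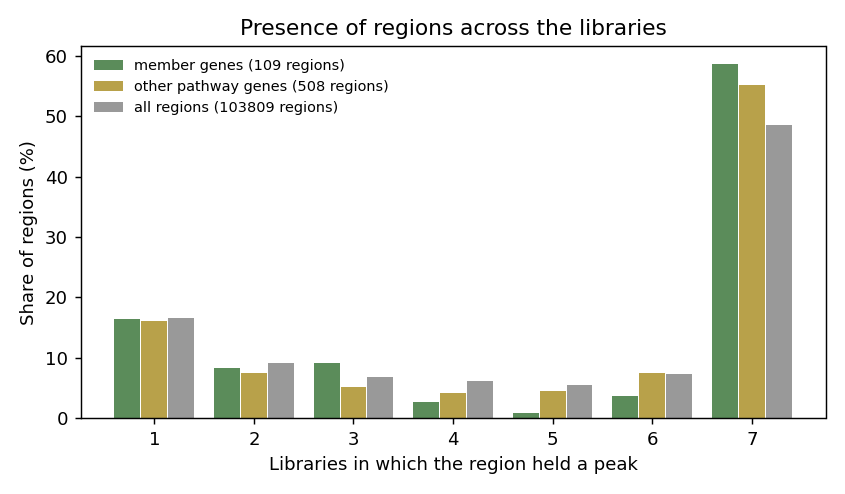
Share of regions in percent (vertical axis) by the number of libraries in which the region held a peak (horizontal axis), for the 10 member genes (green), 71 other pathway genes (ochre) and all regions (grey). The member genes had 58.7% of their regions open in all 7 libraries, compared with 48.5% of all regions, and 16.5% against 16.6% open in 1 library.

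Heights of peaks were compared as a percentile rank within each library, from 0 for the lowest to 100 for the highest −log10 q, because lists called separately have no common scale. The difference between recipient types was tested at each of the 50324 regions open in all libraries with limma, with Benjamini-Hochberg adjustment over all of them. By this test 0.36% of all regions were higher in Allo and 0.101% lower. Of the 64 member regions, 1 was called higher and 0 lower. At an unadjusted p under 0.05 there were 4 in each direction, or 12.5% against 15.4% of all regions. The median difference, Allo minus Syn, was 0.78 percentile points, beside 0.44 over all regions, and 36 of the 64 differences were positive. In 6 member regions (9.38%) every Allo library ranked above every Syn library, against 8.06% of all regions, and in 7 (10.9%) every Allo library ranked below, against 6.58%.

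**Figure D3:**
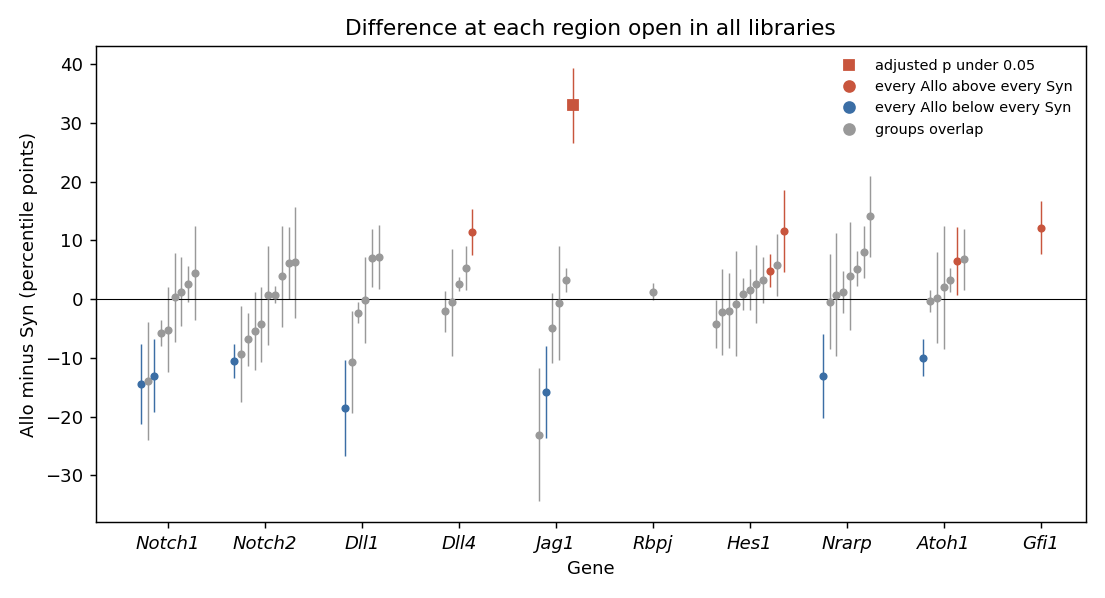
Difference in rank percentile, Allo minus Syn, with its standard error (vertical axis) for each of the 64 regions open in all libraries, ordered by size within each gene (horizontal axis). The red square is the Jag1 region with adjusted p under 0.05; red and blue circles are regions whose groups do not overlap, and grey ones overlap. Jag1 holds both the highest value, 33.0 points, and the lowest, -23.1 points.

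All 10 genes had open chromatin near their start in both recipient types. At Gfi1 it lay inside the gene, and no peak reached the 250 bases upstream of either start in any Syn library, in Allo 1 or in Allo 2. A summit lay within 1 kb of the start of all 10 genes in 6 libraries and of 9 genes in Allo 3, where the nearest summit to Atoh1 was 1187 bp away. The regions at the starts ranked from a mean percentile of 59.7 ± 2.02 in Syn for Hes1 to 93.4 ± 2.72 in Allo for Notch2. In each of the 10 the Allo mean was the higher, with a median difference of 4.24 points, compared with 0.61 over the 9855 shared regions at any gene start, of which 63.4% were positive. The sets are unlike in rank, with a median of the mean percentile of 79.9 at the member starts and 89.1 at all starts. Regions closer to the top of the scale have less room to rise, so the median differences are not directly comparable. Limma called 0 of the 10, 2 had an unadjusted p under 0.05 (Dll4 and Gfi1) against 10.3% of the 9855 regions, and of the latter 6 were called higher and 1 lower. The positive sign was lost at Notch2 without Allo 3 and Allo 4 (-1.27) or without Allo 3 alone (-0.368), and at Rbpj (-1.65) and Atoh1 (-0.453) when the deposited fold was ranked instead of −log10 q.

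**Figure D4:**
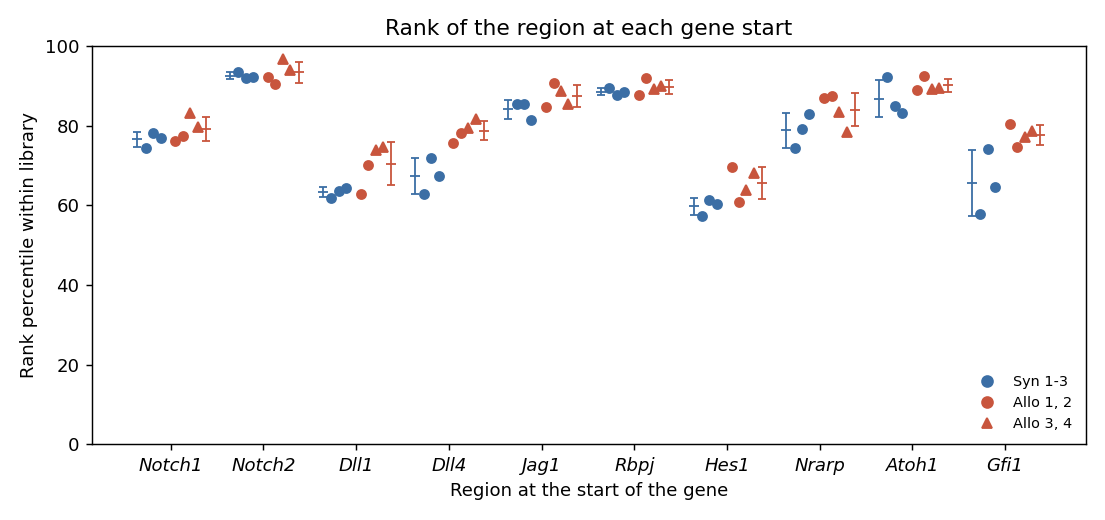
Rank percentile within the library (vertical axis) of the region at the start of each member gene, one point per library (symbols as in the plot of peaks per gene), with group mean and SD as bars beside the points. At Dll4 and Gfi1 all 4 Allo libraries sit above all 3 Syn libraries, against 8.37% of all shared regions at gene starts, and at the other genes the groups overlap.

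Of the receptors, Notch1 and Notch2 are both expressed in the crypt and are both cleaved to release the domain that binds RBPJ. Their 33 regions had a median difference of -4.32 points over the 19 that were shared, and in 0 of these did every Allo library rank above every Syn library, while in 3 (15.8%) every Allo library ranked below, against 8.06% and 6.58% of all regions. At Notch1 the region with the largest difference lay in the gene body 44.95 kb from the start, near the end of the gene (chr2:26458362-26459121). It ranked at 62.6, 58.3 and 66.5 in Syn and at 34.995, 53.2, 55.3 and 48.3 in Allo, with no overlap, but the difference of -14.5 ± 6.86 points (SE) was not called (limma, adjusted p = 0.337). The summits of this region lay 44879 to 44951 bp from the start in Syn. They lay at 44980 and 45018 bp in Allo 1 and Allo 2, and farther off, at 45251 and 45233 bp, in Allo 3 and Allo 4. The difference in group means, 197.5 bp, was not called either (limma, adjusted p = 0.909). The share of all regions whose summits do not overlap between groups is not given here. Another Notch1 region in the gene body, 8.68 kb from the start (chr2:26494677-26495456) and chosen after its values were seen, had a difference of -13.0 points and groups that did not overlap (adjusted p = 0.334).

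At Notch2 the largest difference lay 85.39 kb inside the gene (chr3:98098506-98099615), at one of its highest-ranking regions. Its percentiles were 91.0, 90.2 and 86.9 in Syn and 72.8, 85.8, 79.1 and 77.7 in Allo. Every Allo library was below every Syn library, and the difference was -10.5 ± 2.87 points (limma, adjusted p = 0.113). It passed the threshold without Allo 1 and Allo 2 (adjusted p = 0.0103), without Allo 2 alone (0.0437), and when ranks were taken among shared regions only (0.0408). Notch2 also held 2 of the 3 regions that separated the recipient types by presence. A region 19.36 kb upstream (chr3:97993988-97994437) had a peak in Allo 1 to 4 at percentiles 10.6, 0.1, 39.5 and 8.3 and none in Syn. A region 11.23 kb inside the gene (chr3:98024394-98024836) had a peak in Syn 1 to 3 at 27.2, 12.3 and 34.7 and none in Allo. These 7 peaks ranked low, with 39.5 the highest percentile.

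The ligand genes held the region that was called. Jag1 encodes a ligand of the Jagged family. A region 18.03 kb inside the gene (chr2:137098037-137099126) ranked at 64.0, 32.8 and 51.8 in Syn 1 to 3 and at 81.1, 81.9, 85.6 and 81.6 in Allo 1 to 4. The group means were 49.5 ± 15.7 (SD, n = 3) and 82.6 ± 2.05 (SD, n = 4), so the Allo libraries were tightly grouped above all Syn libraries, which varied widely. The difference was 33.0 ± 6.41 points (SE; limma, adjusted p = 0.0440). The peak was 728, 731, 911 and 1090 bp wide in Allo 1 to 4 and 388, 393 and 604 bp in Syn 1 to 3. Width and height come from the same peak call, so the widths are not separate evidence. The share of all regions whose widths do not overlap between groups is not given here. All 7 summits lay between 18005 and 18032 bp from the start.

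The call at this Jag1 region stood close to the threshold. It was lost without Syn 1 (adjusted p = 0.0706), Syn 2 (0.103), Syn 3 (0.134), Allo 2 (0.0544), Allo 3 (0.0989) or Allo 4 (0.113), without Allo 3 and Allo 4 together (0.143), with peaks of −log10 q of at least 5 (0.0513), with regions scored 0 where a library had no peak (0.0656) and with the rank of the deposited fold (0.233). The difference itself stayed between 23.7 and 43.2 points in every alternative that gave a value, and requiring peaks to cover 50% of the region gave none.

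**Figure D5:**
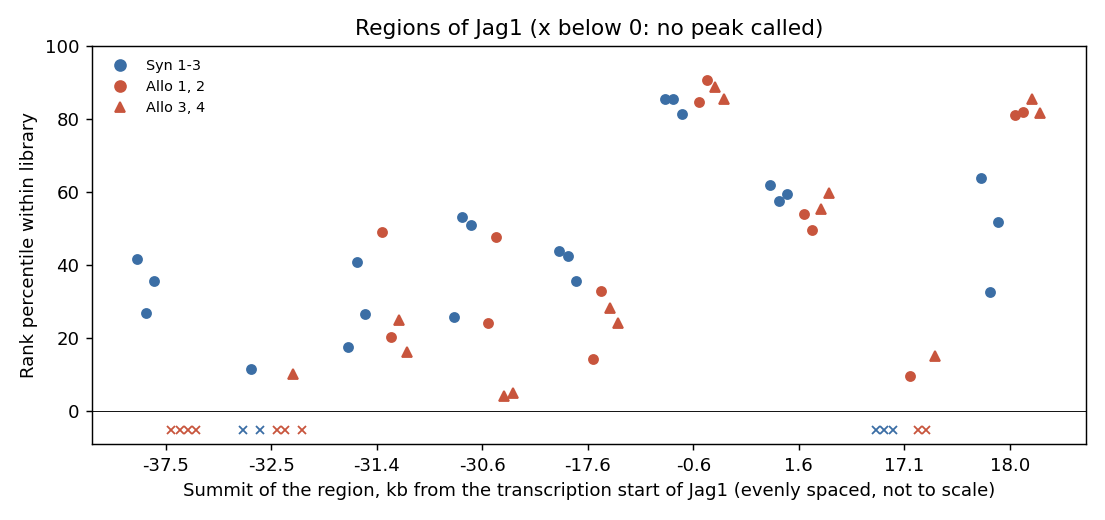
Rank percentile within the library (vertical axis) of each of the 9 Jag1 regions, placed by the position of the summit in kb from the transcription start, with even spacing (horizontal axis); crosses below 0 mark libraries with no peak, and symbols are as in the plot of peaks per gene. At 18.0 kb the 4 Allo libraries sit from 81.1 to 85.6, above the Syn libraries, while the region at -37.5 kb has peaks in Syn only.

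No other Jag1 region was called. A region 37.49 kb upstream (chr2:137153502-137154320) was open in Syn 1 to 3 at percentiles 41.6, 27.02 and 35.7 and in no Allo library. A region 17.61 kb upstream (chr2:137133810-137134809), chosen after its values were seen, ranked at 43.9, 42.6 and 35.7 in Syn and 14.3, 32.9, 28.2 and 24.1 in Allo (difference -15.9, adjusted p = 0.356). The region at the Jag1 start ranked at 84.1 ± 2.35 in Syn and 87.3 ± 2.78 in Allo, and these groups overlapped.

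Dll4 and Dll1 encode the Delta-like ligands with main roles in the crypt. At the Dll4 start (chr2:119324700-119326327), which includes the promoter printed above, percentiles were 62.9, 71.8 and 67.3 in Syn and 75.8, 78.2, 79.4 and 81.7 in Allo. The groups did not overlap, and the difference was 11.4 ± 3.88 points (limma, adjusted p = 0.188). The region at the Dll1 start (chr17:15375060-15376761) ranked at 63.3 ± 1.34 in Syn and 70.4 ± 5.41 in Allo, with overlap. A weak Dll1 region 20.12 kb downstream of the start (chr17:15355542-15355997), beyond the gene end, ranked at 22.9, 43.6 and 42.1 in Syn and at 17.0, 20.8, 18.97 and 13.96 in Allo. All Allo libraries were the lower, with a difference in means of -18.6 points (limma, adjusted p = 0.301). Closer to the gene, a Dll1 region among the highest of the gene (chr17:15356380-15357454), chosen after its values were seen, ranked at 87.9 to 93.6 in Syn and 85.7 to 90.0 in Allo.

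Rbpj, through which all the receptors act, had 1 region open in all libraries, at its start (chr5:53588908-53591024). It ranked at 89.4, 87.6 and 88.4 in Syn and 87.7, 92.0, 89.3 and 89.9 in Allo, a difference of 1.26 ± 1.47 points (limma, adjusted p = 0.742), and the summits of the 7 libraries lay within 64 bp. The 4 other Rbpj regions were each missing in at least 1 library. The region 23.66 kb upstream of this start, which lies inside the RefSeq gene body (chr5:53566149-53566845), was chosen after its values were seen. It was open in Allo 1, 3 and 4 at percentiles 47.4, 57.7 and 51.9, and in neither Allo 2 nor any Syn library.

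The targets Hes1 and Nrarp had 32 regions, of which 19 were shared, and none of these was called or had an unadjusted p under 0.05. Distances at Hes1 are from the lower-coordinate end of the gene. The region at that end (chr16:30065059-30065441) ranked at 57.4, 61.3 and 60.4 in Syn and 69.5, 60.8, 63.9 and 68.0 in Allo, with overlap (difference 5.84 ± 5.31; adjusted p = 0.651). Within the gene, 1.66 kb away (chr16:30066707-30067209), percentiles were 32.4, 34.1 and 30.9 in Syn and 43.9, 48.9, 40.3 and 43.3 in Allo. The groups did not overlap there, but the difference of 11.7 ± 6.99 points was not called (adjusted p = 0.454). The highest-ranking Hes1 region lay 19.59 kb before the gene (chr16:30045510-30046287), and, chosen after its values were seen, it ranked at 80.9 to 83.8 in Syn and 76.7 to 87.9 in Allo.

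At Nrarp the region at the start (chr2:25179922-25181993) ranked at 78.8 ± 4.37 in Syn and 84.0 ± 4.19 in Allo (limma, adjusted p = 0.438). The largest difference was at 7.91 kb upstream (chr2:25172615-25173204), with 62.2, 36.8 and 51.2 in Syn and 65.7, 62.8, 69.4 and 58.8 in Allo. These groups overlapped, and the difference of 14.1 ± 6.91 points was not called (adjusted p = 0.353).

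On the secretory side, Atoh1 was open at its start in every library. Its region (chr6:64727511-64729921), which includes the window with 3 HES sites, ranked at 92.2, 84.9 and 83.3 in Syn and 89.0, 92.6, 89.3 and 89.4 in Allo, with overlap (difference 3.29 ± 2.03; limma, adjusted p = 0.469). A region 34.97 kb downstream (chr6:64763599-64764643) ranked at 88.1, 85.7 and 88.4 in Syn and 68.3, 80.3, 79.9 and 81.1 in Allo. Every Allo library was below every Syn library there, with a difference of -9.99 ± 3.19 points (adjusted p = 0.168). This difference passed the threshold without Allo 1 and Allo 2 (adjusted p = 0.0461) and with ranks among shared regions only (0.0379). A region 14.04 kb downstream (chr6:64742084-64743868), chosen after its values were seen, ranked at 84.4 to 89.3 in Syn and 84.1 to 88.0 in Allo.

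Gfi1 had 4 regions, and 1 was open in all libraries, within the gene 0.28 kb from its inner start (chr5:107723609-107724512). Its percentiles were 57.8, 74.2 and 64.5 in Syn and 80.3, 74.6, 77.1 and 78.7 in Allo. The lowest Allo library stood just above the highest Syn library, and the difference was 12.2 ± 4.57 points (limma, adjusted p = 0.227). The 250 bases upstream of the outer Gfi1 start held no peak in any library, and those upstream of the inner start were touched by a peak in Allo 3 and Allo 4 only.

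Summit positions of the member regions lay close together. They could be compared at 50 member regions with exactly 1 peak in each library. Of these, limma called 0, and 2 had an unadjusted p under 0.05, while 0.211% of 42604 such regions in all were called. The median size of the difference between groups was 17.7 bp in the members and 14.2 bp over all regions.

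Few regions of the rest of the pathway were called. The 71 other genes (receptors and ligands, cleavage and glycosylation, trafficking and turnover, nuclear cofactors, HES and HEY targets, and secretory lineage factors) had 508 regions, 280 of them shared. Of these 280, limma called 2 higher and 0 lower, against 0.36% and 0.101% of all shared regions. At an unadjusted p under 0.05 there were 40 higher and 16 lower, or 20% together against 15.4% of all regions. In 42 (15.0%) every Allo library ranked above every Syn library, against 8.06% of all regions, and in 15 (5.36%) every one ranked below, against 6.58%. By group, 1 of 37 shared regions of the cleavage and glycosylation genes and 1 of 78 of the nuclear cofactors were called, and 0 of 24, 60, 19 and 62 in the other receptors and ligands, trafficking, HES and HEY and secretory groups. The median difference was 1.26 points, with 174 of 280 positive (62.1%, against 54.1% of all regions).

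The called regions were near Psen2, a catalytic subunit of the γ-secretase that cleaves Notch, and Ep300, an acetyltransferase recruited by the Notch complex. The Psen2 region, 29.82 kb from the gene (chr1:180292834-180293631), ranked at 18.5, 27.02 and 21.1 in Syn and 70.5, 69.1, 68.7 and 69.7 in Allo, a difference of 47.3 ± 6.39 points (limma, adjusted p = 0.0153). The Ep300 region, 8.22 kb from the gene (chr15:81577666-81578243), ranked at 15.1, 27.02 and 30.3 in Syn and 61.1, 78.8, 75.4 and 70.7 in Allo, a difference of 47.4 ± 7.12 points (adjusted p = 0.0180). In both regions every Allo library stood far above every Syn library. Both calls were lost without Syn 1 (adjusted p = 0.0753 for Psen2 and 0.0963 for Ep300), Syn 2 (0.0539 and 0.0807), Syn 3 (0.0710 for both) or Allo 4 (0.0590 and 0.0661), and without Allo 3 and Allo 4 together (0.0636 and 0.0906) or with 0 for missing peaks (0.0514 and 0.0577). The Ep300 call was also lost with 50% coverage (adjusted p = 0.0509) and with the rank of the deposited fold (0.0541). Over these alternatives the differences stayed between 42.9 and 54.7 points.

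Summits could be compared at 222 regions of these 71 genes, and limma called 1, against 0.211% of 42604 such regions in all. A region 49.70 kb from Foxa2, a secretory lineage factor (chr2:147992779-147994080), had its summit at 147993553, 147993552 and 147993520 in Syn 1 to 3 and at 147993175, 147993173, 147993171 and 147993176 in Allo 1 to 4. The Allo summits lay 368 ± 10.2 bp lower in coordinate (limma, adjusted p = 4.59e-05), and within each group the summits spanned fewer bases than the shift. The call was lost with the replicate number as a block, although these numbers did not pair the samples. The height of this region was not called, with percentiles of 80.3 ± 3.55 in Syn and 82.2 ± 5.06 in Allo (adjusted p = 0.837). By presence, regions in Ncor1 and Gfi1b and near Creb3l1 were open in all Allo libraries and no Syn library, as were 0.787% of the regions of these 71 genes and 1.14% of all regions. There were 5 regions (0.984%, against 1.01%) open in all Syn libraries and no Allo library, in Adam17, Hdac3, Dtx4 and, with 2 regions, Maml3.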

How the data were processed

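Omni-ATAC-seq peaks of 3 Syn and 4 Allo libraries were analysed, with groups taken from the sample titles. Per the submitters' processing notes, the tools were Bowtie2, Trim Galore, MACS2 and MACS3 with mm10, without versions or roles. Read shifting and filtering, not given in the sources used here, can change peak widths. Separately called lists were deposited by the authors for each library, with a score, a fold over background as a linear ratio, the −log10 p, the −log10 q and the summit of each peak. The lowest −log10 q was 1.30. The deposited folds and −log10 values were used only within a library. Read depth is unknown, and how far counting error limits each value could not be stated.

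Percentile ranks, merged regions (1 bp overlap) and peak assignment were computed with Python 3.11.15. Ranks and summits were fitted with limma 3.58.1 (R 4.3.3; trend for ranks only) over all regions, with Benjamini-Hochberg adjustment at 0.05, two-sided. Single values per library used exact permutation. Spread between libraries is spread between pools of mice.

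Named regions were those at each gene start, those called, those that separated the groups by presence, and the one with the largest difference per member; others are marked. Other pathway genes were named when called or separating, and not every such item is reported here. The members and all lists were chosen with earlier results of these data known. Promoter sequences are from RefSeq (GRCm38.p6). On simulated data with 100 planted shifts of each size, limma recovered 21 at 20 percentile points and 50 at 40 points among 50324 regions, and 60 at 200 bp and 1 at 50 bp among 42604 summits.

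Alternatives were stricter or equal-length lists, 501 bp windows, 50% coverage, the rank of the deposited fold, normal scores, 0 for missing peaks, ranks among shared regions, other distances, a replicate block, and leaving out libraries.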

Additional observations from a re-analysis of the deposited data

Results flagged for a closer look

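In 5 of 28 sets of 4 Allo values (chance flags about 1 in 20 sets of continuous values), a single library was flagged by the gap test of Dixon. Of these, 3 were peak numbers that differ by 1 peak from 3 equal values: 12 for Notch2 in Allo 1, 6 for Dll4 in Allo 3 and 7 for Jag1 in Allo 4. The test flags any difference from 3 equal values, so the rate of 1 in 20 does not apply to peak numbers. The other two were rank percentiles at Atoh1. The region at the Atoh1 start was highest in Allo 2, at 92.553. The region 34.97 kb downstream of Atoh1 was lowest in Allo 1, at 68.271, and without Allo 1 its difference between recipient types was -6.95 points (limma, adjusted p = 0.0950) in place of -9.99 points.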

How the results depend on the processing

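Counts of calls depended strongly on the settings, and the cause was not tested. Over all regions, 0 to 4882 were called higher (181 as reported) and 0 to 1946 lower (51), the most without Allo 1 and 2 and 0 in both directions without Allo 3 and 4. The member density difference turned to -0.172 with equal-length lists and to -0.0931 without Allo 1 and 2, and lay between 0.171 and 0.669 when 1 library was left out.

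Of the members, 0 were called higher with −log10 q of at least 5, with 50% coverage, with ranks of the deposited fold, without Allo 3 and 4 and with 0 for missing peaks, and 2 without Allo 1 and 2. Called lower were 4 without Allo 1 and 2 and 2 with ranks among shared regions, where 1946 and 792 were called lower over all regions. Leaving out 1 library gave 0 to 1 in each direction. A summit was called in 1 member without Allo 1 and 2, and in 0 to 1 when 1 library was left out. Member regions open in Allo alone numbered 0 with −log10 q of at least 5, with equal-length lists and with 50% coverage. They numbered 8 without Allo 1 and 2, and 1 to 3 with 1 library left out. Without Allo 1 and 2, regions open only in Allo 3 and Allo 4 count too, 3.67% of member regions and 3.70% of all regions. Member regions open in Syn alone numbered 1 with equal-length lists and 2 to 3 with 1 library left out. Of the 10 members, 9 had a start peak in every library, and 10 did without Allo 3.

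Of the other pathway genes, the regions called higher numbered 5 with equal-length lists, 0 with 50% coverage, 1 with ranks of the deposited fold, 0 without Allo 3 and 4, 34 without Allo 1 and 2, 0 with 0 for missing peaks, 7 with ranks among shared regions, and 0 to 4 with 1 library left out. Called lower were 1 with equal-length lists, 5 without Allo 1 and 2, 4 with ranks among shared regions, and 0 to 1 with 1 library left out. In the whole series, 4882 were called higher and 1946 lower without Allo 1 and 2, and 667 and 792 with ranks among shared regions. Summits called were 2 without Allo 1 and 2 and 1 to 2 with 1 library left out. Regions open in Allo alone were 1 with equal-length lists, 31 without Allo 1 and 2, and 4 to 10 with 1 library left out. Those open in Syn alone were 9 without either pair of Allo libraries and 5 to 9 with 1 library left out. The share of all regions that separated the groups under each of these alternatives is not given here.

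The sign of the difference turned at the Notch2 start without Allo 3 and 4 (-1.27) or Allo 3 (-0.368; -0.368 to 1.75 with 1 library left out), and at the starts of Rbpj (-1.65) and Atoh1 (-0.453) with ranks of the deposited fold.

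Samples with the same replicate number did not deviate together (correlations 0.076, -0.033 and 0.074), so the numbers do not pair them. With the number as a replicate block, 106 regions were called higher and 56 lower in all, the Jag1 call stood (adjusted p = 0.0445), and the Foxa2 summit fell out of the calls (0 called, adjusted p = 0.0562).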
